A study of Mus musculus with 17 samples.

Results

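The lysosomal genes described here are 36 genes named by symbol: 18 subunits and accessory proteins of the vacuolar proton pump (V-ATPase), 10 cathepsins, and 8 membrane proteins, cholesterol carriers and regulators of the lysosome. A probe set was taken for a gene only where its annotation held that symbol alone, and for each gene the probe set with the brightest mean over the 15 KO and WT samples without an additional mark was used. By this rule 35 of the 36 genes were measured, of 18193 genes on the array, with 81 probe sets between them. Atp6v0c, the proteolipid of the membrane ring of the pump, had no such probe set and is not analysed here.

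The lysosome is the acidic organelle in which proteins, lipids and autophagic cargo are broken down. The V-ATPase sets its acidity: the peripheral V1 sector hydrolyses ATP in the cytosol and drives rotation of the V0 sector, which moves protons across the membrane. Cathepsins are proteases that mature and work at that pH, and in neurons as in other cells the transcription factors TFEB and TFE3, held in the cytosol by mTORC1 when nutrients are plentiful, act on many lysosomal genes through a palindromic E-box. FOXO factors are also known as regulators of autophagy genes, and the study asked how their loss changes neurons of the aging brain.

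The samples were 8 KO samples (FOXO 1/3/4 KO), from the line in which floxed Foxo alleles were deleted with hGFAP-cre, and 7 WT samples, with a mixed FVB/B6 background stated for the mice. This Cre acts in progenitors common to neurons and glia, so neither lineage is spared. Dentate gyrus had been taken by laser capture according to the methods, while the labels name only brain. Affymetrix mouse arrays were used, for which the deposited signal had the same trimmed mean of 500 on all 17 arrays, with an array median of 92.6 to 116.5 in KO and 88.1 to 112 in WT. No age or sex was given for these samples, and each bears its own mark, taken here to be an animal; nothing says so outright, so p-values measure the spread between these samples, which may be technical. A further KO sample (433CA13) and a further WT sample (437CA13) carry a mark, CA13, that the sources do not explain, and were kept out of both groups. From the numbers in the labels, 2 KO and 2 WT samples form a smaller array series and 6 KO and 5 WT samples a larger one.

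Foxo1 had a signal of 121 to 658 in KO (median 217), against 4970 to 19070 in WT (median 10090), and its log2 fold change was -5.08 (standard error 0.30, adjusted p = 1.16e-07 from limma). Foxo3 had a log2 fold change of -0.46 and Foxo4 of 0.43 (adjusted p = 1 from limma for each). The other Foxo3 probe sets had -0.37 and -0.10. In that order, the unadjusted p from limma of the 3 Foxo3 probe sets was 0.014, 0.0125 and 0.698. The second Foxo4 probe set had -0.56, the opposite sign, and both Foxo4 probe sets were dim. Their unadjusted p from limma was 0.146 for the first and 0.00537 for the second. The library labelled KO 433, which carries no CA13 mark, did not have the markers of dentate gyrus. Its mean log2 level over 12 markers of dentate granule neurons was 7.997, against 11.15 to 11.32 in the other 7 KO samples and 11.11 to 11.37 in WT, and its mean over 12 markers of CA pyramidal neurons was 10.93, against 8.53 to 9.15 in those KO samples and 8.46 to 9.15 in WT. The KO sample 433CA13 had 11.20 for the granule markers and 8.62 for the pyramidal markers, the pattern of the unmarked samples. The WT sample 437CA13 had 8.07 and 10.83. The labels of the 2 samples of mark 433 may be exchanged, which the sources used here do not settle, and every KO value that includes the library labelled 433 depends on this. Group medians, and the genes whose sign or nominal threshold turned on that library, are therefore given with and without it, as are some others that moved.

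Since TFEB and TFE3 bind the E-box CACGTG with preferred flanks, the members whose proximal promoter carries the 8-base palindrome TCACGTGA are shown first. RefSeq promoters of build GRCm38.p6, each running from 250 bases before to 50 bases after the start, matched 28 of the 36 genes. Both strands were searched. The 6-base core CACGTG lay in 10 of the 28 (35.7%), against 8.09% of the 27025 promoters of all genes. It also lay in 14 of 65 other lysosomal genes with a promoter (21.5%), described further below. The palindrome TCACGTGA, which contains that core, lay in 6 of the 28 (21.4%), against 1.12% of all and 6 of those 65 (9.23%). It was thus not particular to the members. The same palindrome with a G before and a C after it lay in 0 of the 28. It lay in 0.37% of all and in 2 of those 65 (3.08%). The FOXO core TGTTTAC lay in 0 of the 28, against 4.05% of all and 3 of those 65 (4.62%). These matches describe letters in a window of 300 bases and not bound sites. The 7 copies of the palindrome in the members are printed below on the strand of the gene, in windows of 30 bases with TCACGTGA in capitals.
Atp6v0d1, chr8:105566050-105566079, minus strand: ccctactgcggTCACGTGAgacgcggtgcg
Atp6v0e, chr17:26676387-26676416, plus strand: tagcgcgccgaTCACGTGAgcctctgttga
Atp6v1a, chr16:44139373-44139402, minus strand: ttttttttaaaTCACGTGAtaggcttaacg
Ctsa, the first copy, chr2:164833749-164833778, plus strand: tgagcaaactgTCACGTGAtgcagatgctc
Ctsa, the second copy, chr2:164833766-164833795, plus strand: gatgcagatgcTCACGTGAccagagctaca
Ctsd, chr7:142387908-142387937, minus strand: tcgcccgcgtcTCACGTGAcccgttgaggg
Mcoln1, chr8:3500462-3500491, plus strand: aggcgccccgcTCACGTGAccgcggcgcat

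None of the 35 lysosomal genes passed the test between KO and WT. The comparison asks whether loss of FOXO in the dentate gyrus altered mRNA for the pump, the proteases and the membrane of the lysosome. At an adjusted p under 0.05 from limma, 0 of 35 were called, against 0.0133% of the 45037 probe sets tested, of which 6 were called. At an unadjusted p under 0.05, 1 of 35 (2.86%) was higher in KO and 0 were lower, against 1.53% of all genes higher and 1.52% lower. These nominal counts changed with the fit. Without the library labelled 433, or with 433CA13 in its place, 0 were higher and 1 was lower (Ctsf). With the array series as a block 2 were higher (Atp6v1c1 and Atp6v1g2) and 0 lower, and in the larger array series alone 1 was higher (Npc2) and 0 lower. With an RNA quality score (the log2 ratio of 3' to 5' Gapdh signals) as a covariate 0 were higher and 0 lower. By the methods' t-test 1 was higher and 0 lower. The KO and WT samples overlapped for 35 of 35, and the share of all genes without overlap was 0.022%. The median log2 fold change over the 35 was 0.03, with 22 above 0, against 0.01 over all genes, of which 52.4% were above 0. What the arrays limit can be read from the intervals: the 95% confidence interval lay within a 2-fold change in both directions for 34 of 35 (97.1%), against 94.8% of all genes, and within 1.5-fold for 23 of 35 (65.7%), against 57.1% of all genes. Without the library labelled 433 the sign turned for 4 of the 35, with log2 fold changes of -0.08 for Atp6v0b, -0.03 for Ctsc, 0.06 for Ctso and 0.06 for Tfeb. How small a change could be seen differed between genes, with standard errors of the log2 fold change of 0.09 to 0.38 over the 35. Values inside the interval of a gene could not be told apart with these samples. In bulk RNA, fewer cells of a type and less RNA per cell cannot be told apart.

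**Figure D1:**
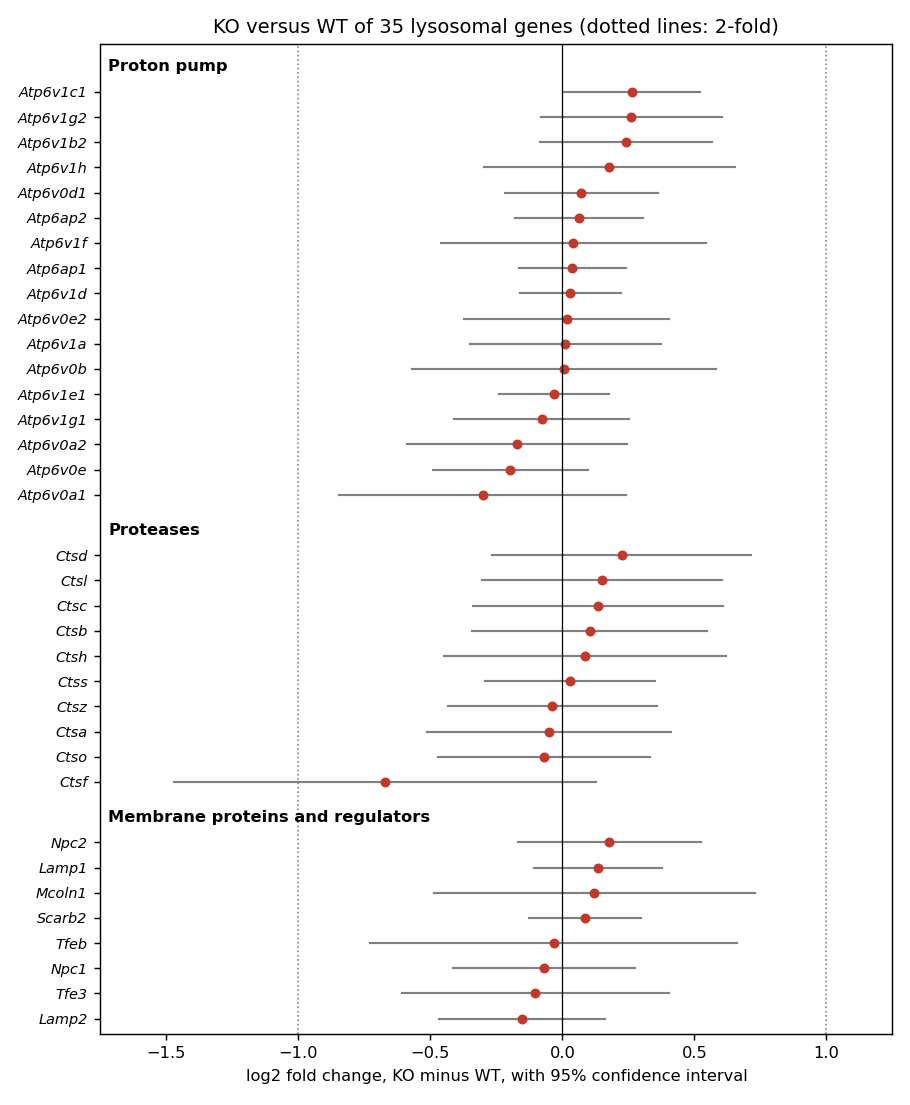
Log2 fold change of KO minus WT (x axis) with its 95% confidence interval from limma for each of the 35 genes (y axis), ordered within the pump, the proteases and the membrane proteins and regulators. The interval of Ctsf alone reaches past a dotted 2-fold line, and that of Atp6v1c1 alone stays clear of 0, with a lower end of 0.004.

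The 17 proton pump genes had a median log2 fold change of 0.03, with a range of -0.30 to 0.26 and 12 of 17 above 0, and the median was 0.03 without the library labelled 433 too. The pump gene nearest to a difference was Atp6v1c1, subunit C, which clamps V1 to V0 and is released when the pump comes apart. Atp6v1c1 had a signal of 14480 to 27050 in KO (median 17890), against 12990 to 19990 in WT (median 15420). Its highest value was that of the library labelled 433, and the remaining KO samples overlapped with WT over most of the range. The log2 fold change was 0.26 (95% confidence interval 0.004 to 0.52, exact permutation p = 0.0458, two-sided, over 6435 splits, adjusted p = 1 from limma). A second probe set of Atp6v1c1 also had 0.26 (exact permutation p = 0.0204) and the dimmest one had -0.08. Without the library labelled 433 the log2 fold change of Atp6v1c1 was 0.22 and its unadjusted p no longer passed 0.05. It was 0.24 in the larger array series, where that threshold was missed as well, and 0.19 without WT sample 392, which had the lowest signal. With the array series as a block it was 0.26, and that threshold was passed.

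Atp6v1g2, the brain isoform of the stalk subunit G, was the second of the pump genes. It had a signal of 798 to 1366 in KO (median 1014), against 655 to 1299 in WT (median 761). The groups overlapped over most of their range, with a log2 fold change of 0.26 (95% confidence interval -0.08 to 0.60, exact permutation p = 0.128). With the array series as a block it was 0.28 and its unadjusted p passed 0.05. Its widely expressed partner isoform Atp6v1g1 had -0.08. The other V1 genes had 0.24 for Atp6v1b2, the nucleotide-binding B subunit of brain, 0.01 for Atp6v1a, the catalytic subunit, and 0.18 for Atp6v1h, which regulates ATP hydrolysis. The rotor subunits Atp6v1d and Atp6v1f had 0.03 and 0.04, and the stalk subunit Atp6v1e1 had -0.03. In the membrane sector, both isoforms of subunit a lay below 0, with -0.30 for Atp6v0a1, the isoform abundant in neurons, and -0.17 for Atp6v0a2. Without the library labelled 433 these were -0.44 and -0.21. Atp6v0b, a ring subunit, had 0.01, and Atp6v0d1, which couples the ring to the stalk, had 0.07. The small subunit pair had -0.20 for Atp6v0e and 0.02 for Atp6v0e2. The accessory proteins Atp6ap1 and Atp6ap2, which help the pump to assemble, had 0.04 and 0.06.

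**Figure D2:**
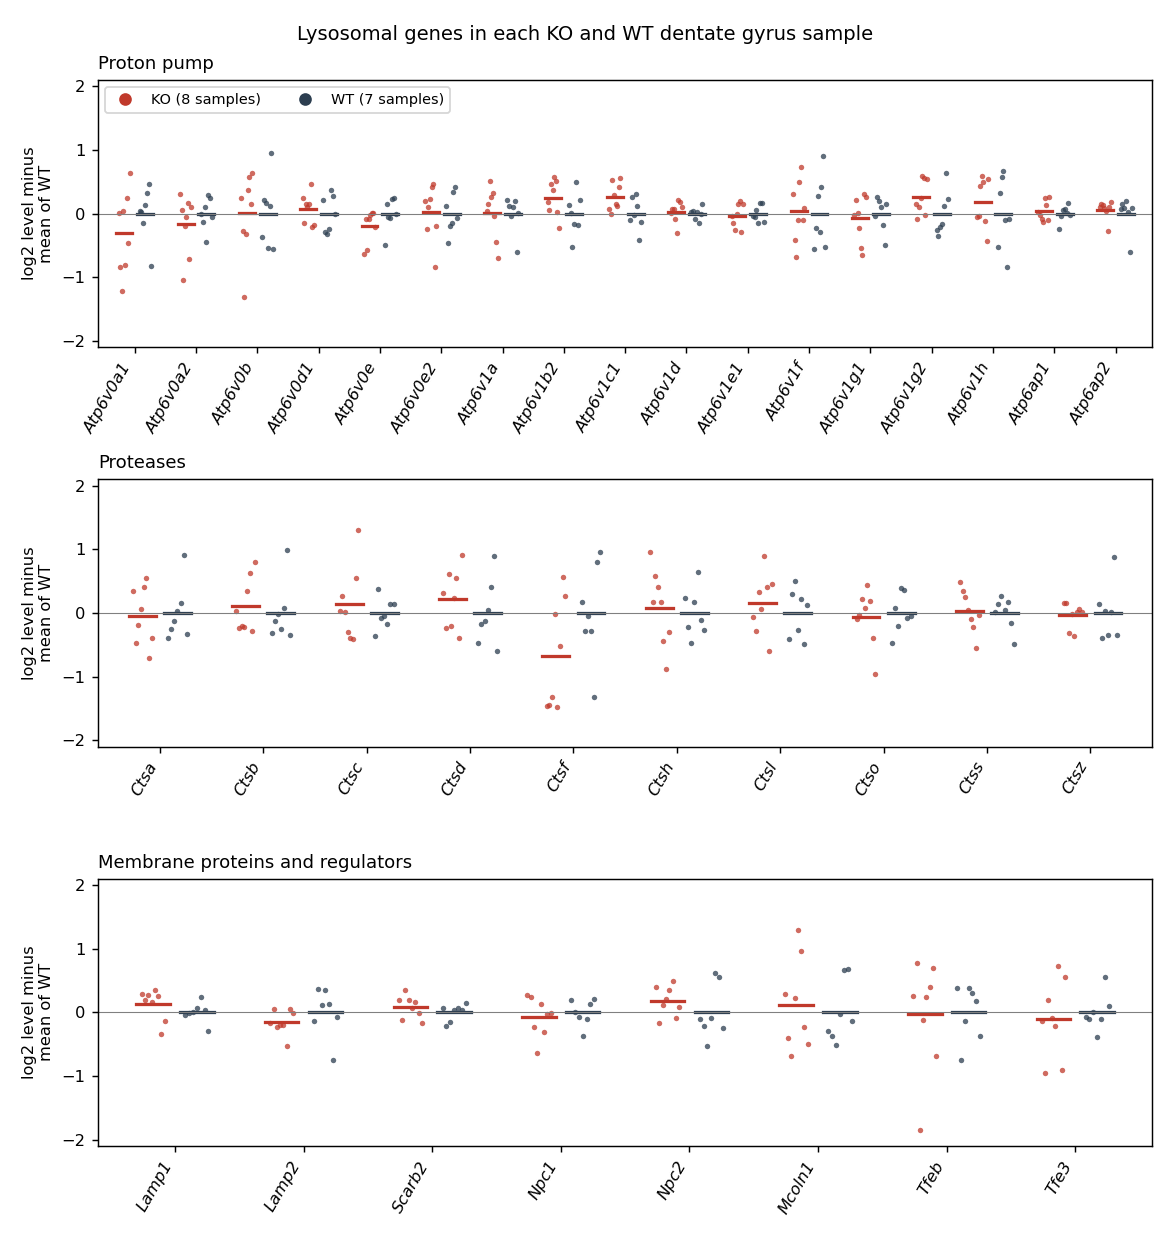
Log2 level of each gene in every sample minus the mean of the 7 WT samples (y axis), with 8 KO samples to the left of 7 WT samples and bars at the means. The points of KO and WT overlap for every one of the 35 genes.

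The 10 proteases had a median log2 fold change of 0.06, with a range of -0.67 to 0.22 and 6 of 10 above 0, and the median was 0.02 without the library labelled 433. Ctsf, a cysteine protease, had the lowest value. Its signal was 10.8 to 168 in KO (median 34.8), against 14.2 to 220 in WT (median 88.3). These signals were dim, close to the 32 added before log2, and varied more than 10-fold within each group. The log2 fold change was -0.67 (95% confidence interval -1.47 to 0.13, exact permutation p = 0.134, adjusted p = 1 from limma), and without the library labelled 433 it was -0.81, where its unadjusted p passed 0.05. The probe set is of a type whose probes can match other transcripts, as are those used for Atp6v0b, Atp6ap2 and Ctsh. The second Ctsf probe set had 0.17.

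Ctsd, the main aspartic protease of the lysosome, had a signal of 640 to 1587 in KO (median 1093), against 571 to 1552 in WT (median 776). The ranges were nearly the same, and the log2 fold change was 0.22 (95% confidence interval -0.27 to 0.72, exact permutation p = 0.385). The highest KO value was that of the library labelled 433, without which the log2 fold change was 0.13. It was 0.43 in the larger array series and -0.25 in the smaller one, so its direction was not shared. Ctss, a cysteine protease known from microglia and other antigen-presenting cells, had a signal of 1893 to 4109 in KO (median 2931), against 2040 to 3550 in WT (median 3091). KO samples held both the highest and the lowest value, and the log2 fold change was 0.03 (95% confidence interval -0.29 to 0.35, exact permutation p = 0.861). Over 12 microglia markers the summed signal was 7763 to 14990 in KO and 7617 to 29360 in WT. Here 29360 was that of WT sample 392, and the next highest was 14020. Most of each sum was Csf1r alone, at 6416 to 12790 in KO and 6319 to 26610 in WT. In each sample 5 to 8 of the 12 markers had a signal under 100. Of the other cysteine proteases, Ctsb, abundant in most tissues, had 0.10 (0.005 without the library labelled 433), Ctsc, which activates serine proteases of immune cells, had 0.14, Ctsh had 0.09 and Ctsl had 0.15. Ctso had -0.07 and Ctsz, a carboxypeptidase, had -0.04. Ctsa, the serine carboxypeptidase that shields beta-galactosidase and neuraminidase, had -0.05. For Ctsc the value was -0.09 with the sample 433CA13 in place of the library labelled 433.

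The 8 membrane proteins and regulators had a median log2 fold change of 0.03, with a range of -0.15 to 0.18 and 4 of 8 above 0, and the median was 0.09 without the library labelled 433. Lamp1, a heavily glycosylated protein that lines the lysosomal membrane, had a signal of 8019 to 12090 in KO (median 11530), against 8095 to 11820 in WT (median 10240). Its log2 fold change was 0.13 (95% confidence interval -0.11 to 0.38, exact permutation p = 0.23). Its relative Lamp2, which also serves chaperone-mediated autophagy, had -0.15. Npc2, the soluble carrier that hands cholesterol to Npc1, had a signal of 7012 to 10800 in KO (median 8678), against 5437 to 12560 in WT (median 7276). The KO samples lay within the range of WT, with a log2 fold change of 0.18 (95% confidence interval -0.17 to 0.52, exact permutation p = 0.321). Npc1 itself had -0.07 and Scarb2, the receptor that carries glucocerebrosidase to the lysosome, had 0.09. Mcoln1, a calcium channel of the lysosomal membrane, had 0.12 (0.21 without the library labelled 433). Tfeb, the regulator, had a signal of 31.7 to 344 in KO (median 229.5), against 103 to 258 in WT (median 227). The medians were close while the KO samples reached further both ways, and the log2 fold change was -0.03 (95% confidence interval -0.73 to 0.66, exact permutation p = 0.935). Its relative Tfe3 had -0.10 (-0.20 without the library labelled 433). mRNA says nothing of where either factor sits in the cell.

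The 6 genes with the TCACGTGA palindrome shown above lay on both sides of 0, with log2 fold changes of 0.22 for Ctsd, 0.12 for Mcoln1, 0.07 for Atp6v0d1, 0.01 for Atp6v1a, -0.05 for Ctsa and -0.20 for Atp6v0e. Over all 235 measured genes with this palindrome the median was 0.02, and over the 491 with TGTTTAC it was -0.01, of which 0 were called.

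The other lysosomal genes listed did not pass the test either. Of 84 genes for tissue-restricted pump isoforms, other proteases and their inhibitors, hydrolases, membrane proteins and sorting factors, 76 were measured, 0 were called by limma and the median log2 fold change was 0.02. At an unadjusted p under 0.05, 0 were higher and 1 was lower, the dim neutrophil protease gene Ctsg, with -0.32. The next smallest p-values belonged to Tpcn2, a channel of the endolysosome (0.52), Manba, a mannosidase (0.32), Gaa, which degrades glycogen (0.30), Idua, which degrades heparan and dermatan sulfate (-0.26), and Arsa, which degrades sulfatide (0.23).

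Where a gene had several probe sets, they often differed in sign. This held for 15 of the 23 genes with more than 1 probe set, and of their 46 other probe sets 1 had an unadjusted p under 0.05, the Atp6v1c1 probe set given above.

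The array series, compared after the values had been seen, separated several of these genes without overlap, which the genotype did for 0 of 35. On the normalized log2 scale, in both KO and WT, 5 of 35 genes (14.3%) were higher in every sample of the smaller series than in every sample of the larger one, against 4.41% of all genes, and 2 of 35 (5.71%) were lower, against 2.61% of all genes. Mcoln1 had a signal of 1313 and 1719 in the smaller series, against 396 to 806 in the larger series among KO, and of 1023 and 1063, against 435 to 640 among WT. Its log2 difference between the smaller and the larger series was 1.35 in KO and 0.94 in WT. For Atp6v1f it was 0.77 in KO and 0.93 in WT, for Ctsa 0.71 and 0.74, for Atp6v0e2 0.57 and 0.53, and for Atp6v1e1 0.27 and 0.24. Atp6v1g1 had -0.68 in KO and -0.47 in WT, and Atp6ap2 had -0.25 and -0.41. In deposited signal the series overlapped for Atp6v1e1 and Atp6ap2 in both genotypes. The series are known only from numbers in the labels, and what else set those samples apart was not tested. Both genotypes are present in each series. With the series as a block, 0 of the 35 were called by limma, and Mcoln1 had a log2 fold change of 0.16 for KO against WT.

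**Figure D3:**
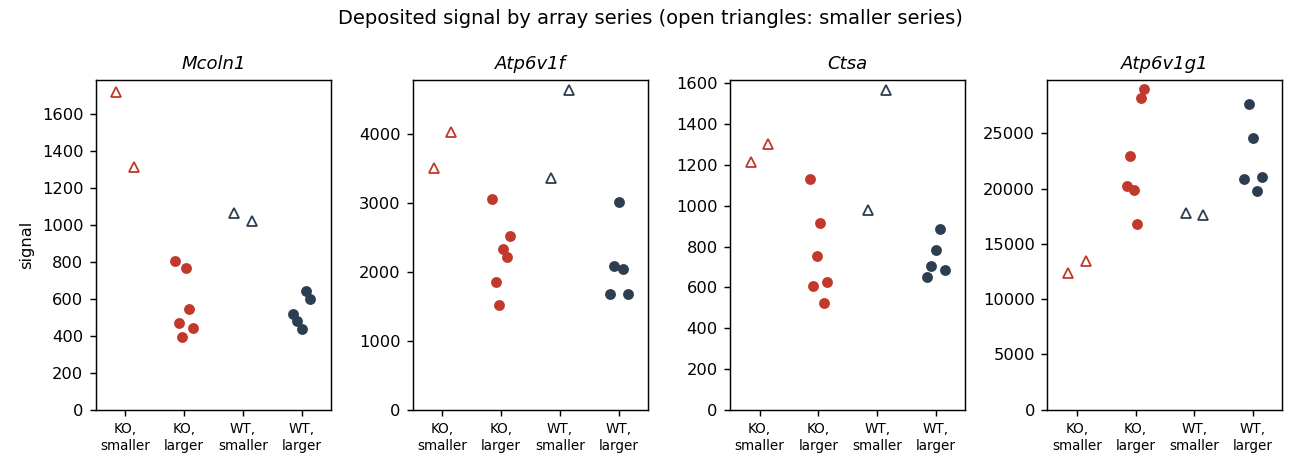
Deposited signal (y axis, from 0) of Mcoln1, Atp6v1f, Ctsa and Atp6v1g1 in each sample, with the smaller array series (open triangles, 2 KO and 2 WT) left of the larger one (circles, 6 KO and 5 WT) within each genotype. Mcoln1, Atp6v1f and Ctsa were higher and Atp6v1g1 lower in the smaller series in both genotypes, on the normalized log2 scale.

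Granule and CA field levels could be set side by side only through single libraries, so no test was made. The WT sample 437CA13, with the marker pattern of CA pyramidal neurons, was compared with the 7 WT samples, and the library labelled 433, with the same pattern, with the other 7 KO samples. In 437CA13, 2 of 35 genes (5.71%) differed at least 2-fold from the WT mean and lay outside the WT range on the normalized log2 scale, against 8.1% of all genes, and 9 of 35 lay outside that range at any fold, against 33% of all genes. In the library labelled 433, 3 of 35 (8.57%) did so relative to the other KO samples, against 9.37% of all genes. Both libraries belong to the larger array series. Against its 5 WT samples, Atp6v1a, Atp6v1g2, Ctsb, Ctsd and Tfe3 lay outside the range at any fold in 437CA13, besides the 9 genes. The share of all genes outside that narrower range was not computed. Against the 5 WT samples of that series alone, 2 of 35 (5.71%) were past both limits in 437CA13, the same Ctsc and Tfeb, against 8.78% of all genes, and against the 5 other KO samples of that series 2 of 35 (5.71%), Atp6v0a1 and Ctsc, in the library labelled 433, against 10% of all genes.

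Ctsc was the 1 gene past 2-fold in both libraries, against 4.3% of all genes. Its signal was 832 in 437CA13, against 233 to 413 in WT (median 309), and 803 in the library labelled 433, against 230 to 486 in the other KO samples (median 328). The log2 differences were 1.36 and 1.33, and a second probe set had 1.52 and 1.17, with the dimmest probe set at 0.10 and 0.38. The sample 433CA13, which has granule markers, had a Ctsc signal of 247, within the range of the KO samples. The 12 microglia markers averaged 7.35 on the log2 scale in 437CA13, against 7.13 to 7.73 in WT, and 7.49 in the library labelled 433, against 7.11 to 7.76 in the other KO samples. Singly, 0 of the 12 were above the WT range and 2 below it in 437CA13 (P2ry12 and Tmem119), and in the library labelled 433 2 were above the range of the other KO samples (C1qb and Fcrls) and 1 below it (Itgam). Of all genes, 33% lay outside the range in 437CA13 and 39.1% in the library labelled 433. The part of microglial RNA in the Ctsc levels was not tested.

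Tfeb was the other gene in 437CA13, with a signal of 44.9, against 103 to 258 in WT (median 227), a log2 difference of -1.59. The library labelled 433 had 117, which was within the range of the other KO samples, 31.7 to 344 (median 233), at a log2 difference of -0.73. Within the mark 437, the CA13 sample minus the unmarked one was -1.46 for Tfeb and 1.44 for Ctsc, and within the mark 433 it was 1.57 and -1.78, with the signs turned. A single dim probe set reads Tfeb. Mcoln1, a gene known to be switched on by TFEB, had log2 differences of -0.87 in 437CA13 and -0.69 in the library labelled 433, and its 3 probe sets were below the mean in both. Its signal was 326 in 437CA13, against 435 to 1063 in WT (median 598), and 444 in the library labelled 433, against 396 to 1719 in the other KO samples (median 767). Those ranges hold the smaller array series, in which Mcoln1 was higher. Against samples of the larger series alone the log2 differences were -0.60 in 437CA13, where WT had 435 to 640, and -0.33 in the library labelled 433, where the other KO samples had 396 to 806, and only 437CA13 lay outside the range. Of the other genes with the TCACGTGA palindrome, Ctsd had 0.10 in 437CA13 and 0.78 in the library labelled 433, against the full groups. In the same order Atp6v0d1 had 0.02 and -0.29, Atp6v0e -0.24 and -0.01, Atp6v1a -0.39 and -0.83, and Ctsa -0.81 and -0.40. These genes did not share a direction, and the part of TFEB in their levels was not tested.

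The remaining members past 2-fold in the library labelled 433 were Atp6v0a1, with a log2 difference of 1.06, and Ctso, with -1.01 (-0.91 against the larger series alone), and these had 0.08 and -0.19 in 437CA13. The other Atp6v0a1 probe sets had -0.015, -0.17 and 0.42 in the library labelled 433, and 0.21, -0.56 and -0.25 in 437CA13. The second, dim Ctso probe set was low in both libraries, with -1.015 in the library labelled 433 and -1.36 in 437CA13. Atp6v1c1 and Atp6ap1 lay above the range in both libraries, with 0.50 and 0.21 in 437CA13 and 0.33 and 0.26 in the library labelled 433. By group, the median log2 difference of 437CA13 from WT was 0.09 for the pump, 0.10 for the proteases and -0.16 for the membrane proteins and regulators, against 0.02 over all genes. For the library labelled 433 the medians were 0.20, 0.21 and -0.20, against 0.01 over all genes. The differences had the same sign in both libraries for 29 of 35 genes (82.9%), against 68.3% of all genes and 72.4% of the other lysosomal genes. Both reference groups hold samples of the smaller array series, which neither library belongs to. Against the larger series alone, the signs parted for Atp6v0e (-0.145 in 437CA13 and 0.066 in the library labelled 433) and Atp6v0e2 (0.001 and -0.084). Npc2 had 0 and -0.011, and the remaining genes kept their agreement or disagreement. The share of all genes was not computed for that series. Of the other lysosomal genes, 7 of 76 (9.21%) differed at least 2-fold and lay outside the WT range in 437CA13.

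**Figure D4:**
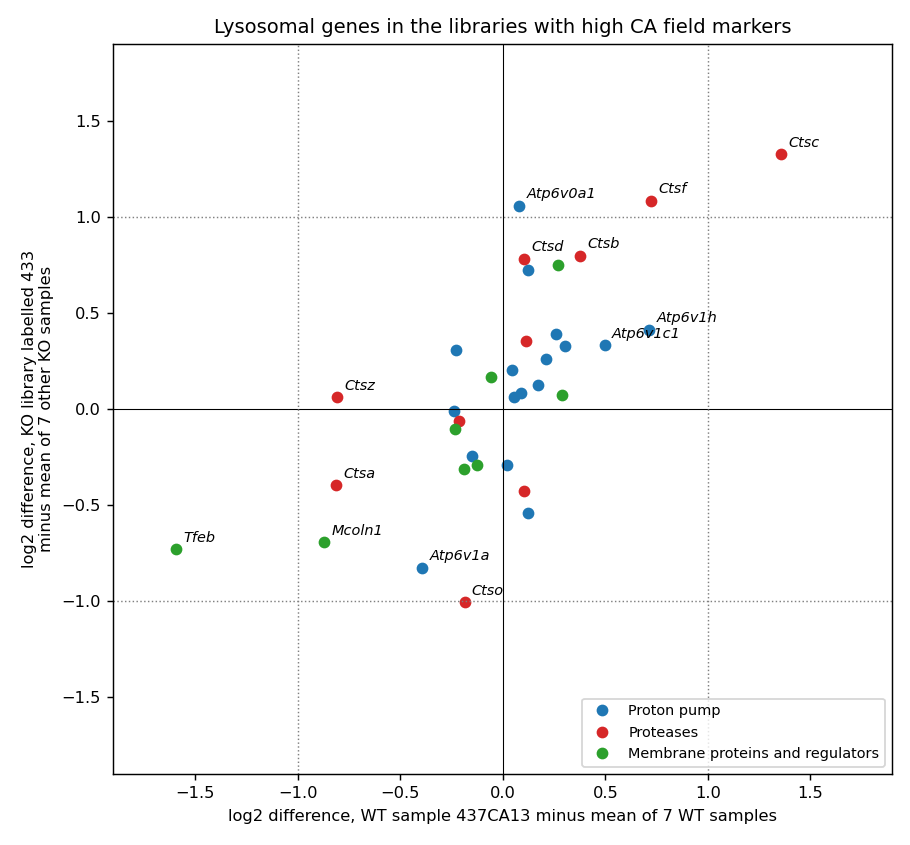
Log2 difference of 437CA13 from the mean of 7 WT samples (x axis) against that of the library labelled 433 from the mean of 7 other KO samples (y axis), 1 point per gene, coloured by group, with dotted lines at 2-fold. Ctsc stands at the upper right in both, and Tfeb and Mcoln1 lie at the lower left.

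**Figure D5:**
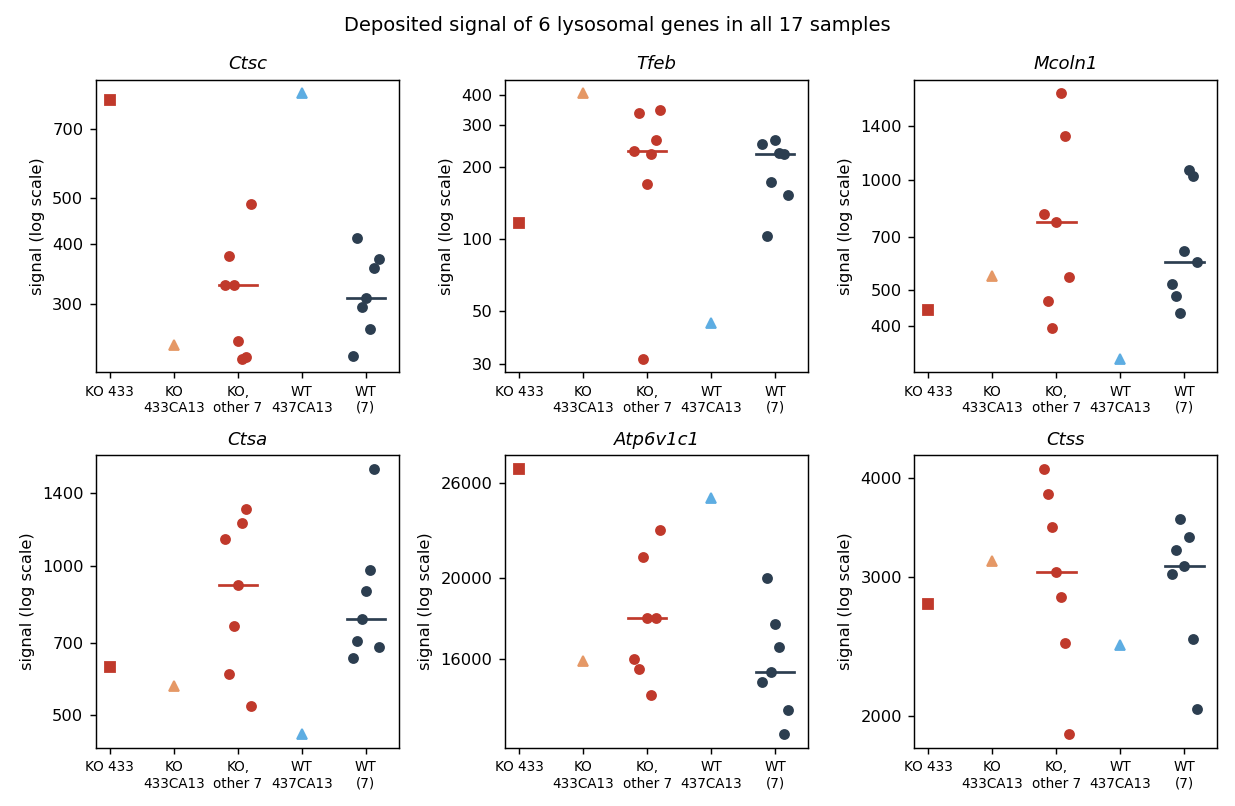
Deposited signal (y axis, log scale) of 6 genes in all 17 samples, with single samples for the library labelled 433, 433CA13 and 437CA13 and lines at the medians of the 7 other KO and 7 WT samples. Ctsc is highest in the libraries 433 and 437CA13, at 803 and 832, while Ctss lies within the range of the other samples in all 3 single libraries.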

How the data were processed

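RNA of 17 samples was hybridised to Affymetrix mouse arrays. The authors deposited linear signal intensities, 1 for each probe set of an array; the submitters' processing notes name MAS5, whereas the paper's methods name RMA and SAM, whose probe-level steps could not be repeated here. Of 45101 probe sets, 64 controls were left out, and 45037 were tested. In the platform annotation 34945 carry 1 symbol, and 0 columns of per-sample values were left unused. Log2(signal + 32) was quantile normalized over the 15 unmarked arrays (over all 17 for the CA13 comparison), which understates changes of dim genes, and fitted with limma 3.58.1 in R 4.3.3 (genotype only, intensity trend, Benjamini-Hochberg, adjusted p under 0.05). The number of arrays limits the precision. Exact permutation tests were two-sided over 6435 splits. The log2 ratio of 3' to 5' Gapdh signals, used as the RNA quality score, was 5.04 to 6.41 in KO and 5.11 to 6.23 in WT. The steps were tested on simulated data.

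The members and lists were chosen with earlier results of these data known. Every member is named; full values are given for members with an unadjusted p under 0.05, the 2 smallest p-values of each group, Ctss, Lamp1 and Tfeb, members past 2-fold and outside the WT range in 437CA13, and of other lysosomal genes the 6 with the smallest p. Mcoln1 and the genes of the array series comparison were added after their values were seen. Alternatives covered scaling, pseudocount, a filter on dim probe sets, probe set choice, sample choice, array series, RNA quality, weights, trend, SAM, the methods' t-test and leaving out each sample.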

Additional observations from a re-analysis of the deposited data

Results flagged for a closer look

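In 7 of 70 groups of samples (35 genes in KO and in WT), 1 sample stood apart from the rest of its group on the normalized log2 scale. The rule has a nominal rate of about 1 in 20 groups for normally distributed values. Its share over all genes was not measured, so the count is not read as a result about these genes. The WT sample 392 stood apart for 5 genes, so these groups are not independent. It was low for Atp6v1a, at 12.86 against 13.44 to 13.68 in the other WT samples, and for Atp6ap2, at 14.79 against 15.41 to 15.59. For Atp6ap2 its deposited signal of 42380 was the WT median (range 38100 to 55360), so the low value appeared only after normalization. The same sample was high for the proteases Ctsa, at 10.72 against 9.42 to 9.96, Ctsb, at 12.54 against 11.21 to 11.63, and Ctsz, at 8.43 against 7.15 to 7.70. Of 12 microglia markers, 5 were above the range of the other WT samples in this sample (Csf1r, C1qa, C1qb, Trem2 and Itgam), 1 was below it (Fcrls) and 6 were within it. The share of all genes above that range in this sample was not computed, so the count is not read as an excess. Trem2 and Itgam were dim in it, with signals of 71.6 and 29.5. Csf1r had a signal of 26610, against 6319 to 12420 in the other WT samples. The part of microglial RNA in these levels was not tested. Without WT sample 392, the log2 fold change of KO against WT was 0.10 for Ctsa, 0.27 for Ctsb, 0.11 for Ctsz, -0.09 for Atp6v1a and -0.04 for Atp6ap2, and 0 of the 35 genes were called by limma.
The KO sample 390 was low for Atp6ap2, at 15.11 against 15.43 to 15.56 in the other KO samples. Its deposited signal of 41270 lay inside the KO range of 29790 to 56610. The WT sample 206 was low for Atp6v0e, at 10.71 against 11.13 to 11.44 in the other WT samples.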

How the results depend on the processing

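None of the 35 genes was called under any alternative run. Of 1049 values of single genes under alternatives, 1044 moved by less than 1 SD between replicates. This limit is wide, since that SD was larger than most of the fold changes and leaving out 1 sample moves a mean only a little. It therefore does not show that a direction was stable. The other 5 values all came from the smaller array series, with log2 fold changes of 0.67 for Atp6v1h, -0.39 for Ctsc, 0.79 for Ctsl, -0.64 for Ctsz and -0.16 for Npc2. A value of the opposite sign was seen in at least 1 alternative for 25 genes and in none for 10. The median of the proteases was -0.21 in the smaller series (2 samples a group) and 0.14 in the larger one, and the other 89 of 90 group medians moved by less than 1 SD. That SD was 0.24 to 0.31, larger than the medians themselves. Over all probe sets, 6 calls became 3 in the larger series and 0 in the smaller one, and 3 to 8 when each sample was left out in turn (3 without WT 437), where fewer samples were fitted; SAM gave 7 and the methods' t-test 4. In 437CA13, the 2 genes past 2-fold became 1 with the larger pseudocount (Ctsc), 1 with the mean over a gene's probe sets (Tfeb) and 3 with a pseudocount of 1, which added Ctsz; with only the WT samples of the larger series, an alternative chosen after seeing the data, they were 2. No paired analysis was possible because the labels give KO and WT no shared replicate numbers.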
